A study of Mus musculus
Rattus norvegicus and Rattus norvegicus and Mus musculus with 18 samples.

Results

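Transcripts of 4T1 tumor cells growing in the lungs were set against those of 4T1 cells in the living outer zone of the primary tumor, gene by gene, in bulk RNA-seq of rats that carried this mouse tumor. The 5 lung and 5 rim libraries are 10 of the 18 libraries of the series. Genes were tested if 5 or more of these 10 libraries reached 1 CPM. This kept 12970 of the 17672 mouse genes in the deposited table. CPM here are mouse counts that the authors scaled to library size times a normalization factor of each library. All rats were SRG rats, an immunodeficient strain without T, B and NK cells. Reads assigned to mouse stand here for the tumor and reads assigned to rat for its host, apart from reads placed on the wrong species, whose expected shares are given below.

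The lung group holds the lungs of Rat3877, Rat3876, Rat3875, Rat3869 and Rat3789, which the labels describe as lung metastasis. The rim group holds the non-necrotic rims of Rat3877, Rat3876, Rat3875, Rat3869 and Rat3867, cut away from the necrotic core of the mammary tumor. Both groups carried 4T1 cells in the mammary fat pad, had no treatment, are labelled wildtype, and were collected at day 27. Thus 4 rats gave both tissues, Rat3789 gave a lung without a rim and Rat3867 a rim without a lung. 4T1 is a single cultured line derived from a mammary carcinoma of a BALB/c mouse, so the rats are replicate hosts of 1 cell line. The labels do not say which share of a lung was taken. The necrotic cores (5 libraries), a pellet of cultured 4T1 cells (1 library) and normal rat mammary gland (2 libraries) are used below only as values set beside the comparison.

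As background, 4T1 cells placed in the mammary fat pad seed the lungs without help and are widely used as a model of breast cancer spread. Epithelial cells are held together by claudins and other tight junction proteins, by cadherins and by desmosomes, carry keratin filaments inside, and rest on a basement membrane to which hemidesmosomes tie them by way of laminins. Loss of these proteins with gain of mesenchymal ones is called the epithelial-to-mesenchymal transition. Cells short of oxygen stabilise Hif1a, which raises glycolytic enzymes and a set of well-known target genes.

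The lung libraries held 15346400 to 26669410 mouse reads and the rim libraries 17579200 to 21239663. Mouse reads made up 64.0 to 75.3% of the assigned reads in the lungs and 65.7 to 81.3% in the rims. Across the tested genes the root mean square log2 distance was 0.55 to 0.86 between a lung and a rim (median 0.77), against 0.35 to 0.58 between lungs (median 0.44) and 0.47 to 0.68 between rims (median 0.56). Host transcripts in the rat table checked the tissue labels. Summed rat markers of alveolar and airway epithelium reached 11089 to 19229 CPM in the lungs of 4 rats but 251 CPM in the lung of Rat3789, against 130 to 250 CPM in the rims, so the library labelled lung of Rat3789 lacked this sign of lung tissue. Its summed rat fibroblast markers were 26179 CPM, against 2329 to 6460 CPM in the other lungs and 31870 to 58174 CPM in the rims, and its rat macrophage markers were 32867 CPM, against 12606 to 15752 CPM in the other lungs and 10368 to 14950 CPM in the rims. The total counts and the counts of many lists are therefore also given without it. Most single genes are given only with it.

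Each library was placed on the genes that were called when it was left out. The lung of Rat3789 lay on the lung side of the mean of the rims for 90.2% of 2831 such genes. It lay outside the range of all 5 rims for 63.3%, and kept a median of 67.5% of the difference between the groups. Among the rims, that of Rat3877 stood nearest to the lungs. It lay on the rim side of the mean of the lungs for 83.1% of 3310 genes and outside the range of the lungs for 56.9%. It kept a median of 50.1% of the difference. These sides are set by the mean of the other group, not by the midpoint of the groups. The other 8 libraries kept 78.1 to 114%.

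**Figure D1:**
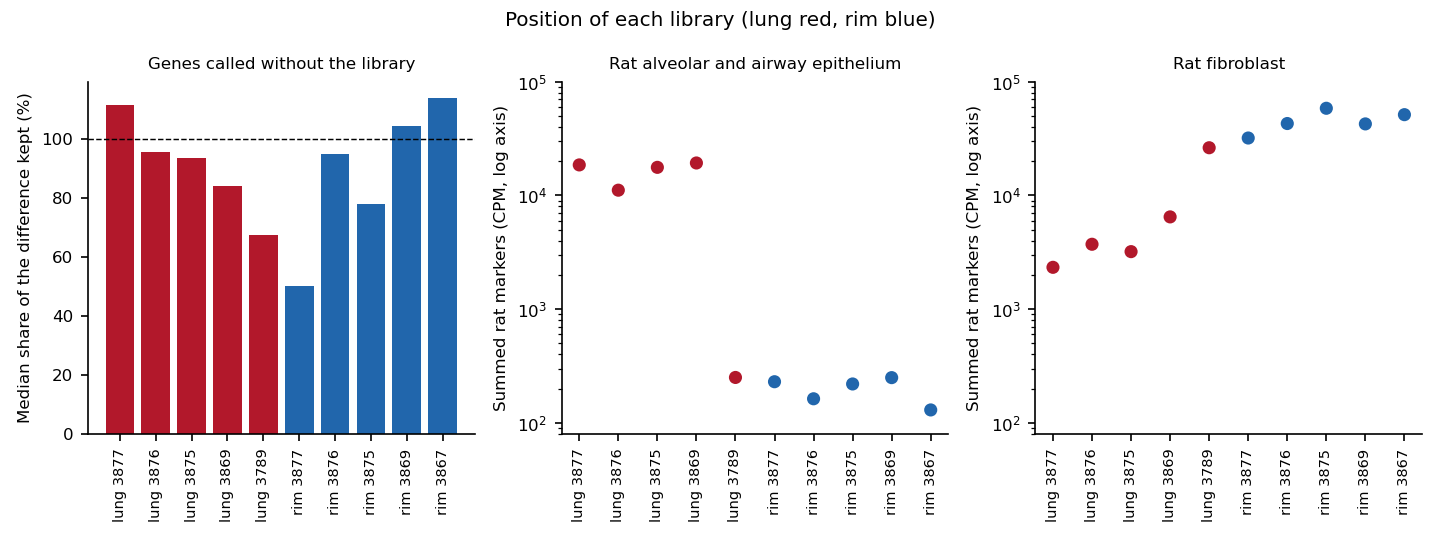
Left, median share of the lung-rim difference kept by each library over the genes called without it, in percent, with 100% dashed; middle and right, summed rat marker genes of alveolar and airway epithelium and of fibroblasts per library in CPM on a log axis; lungs are red and rims blue. The lung of Rat3789 (251 CPM of alveolar markers) lies with the rims in the middle panel, and the rim of Rat3877 keeps the smallest share, 50.1%, in the left one.

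Tumor cells in the lungs differed from those in the rims at 2603 of 12970 genes (20.1%), with 1285 higher (9.91%) and 1318 lower (10.2%) in the lungs, by limma on log2 CPM at a Benjamini-Hochberg adjusted p under 0.05. Larger changes leaned downward: 224 called genes were at least 2-fold higher and 406 at least 2-fold lower. Total-count scaling moved the split to 1717 higher and 1108 lower. Leaving out the lung of Rat3877 gave 1544 called genes and leaving out the rim of Rat3867 gave 1723, the pair of single libraries whose loss moved the count by over 1.5 times. Without the lung of Rat3789, 2831 of the same 12970 genes were called (21.8%), 1397 higher (10.8%) and 1434 lower (11.1%). Of these 2831, 2294 were also called with that lung. The filter on all 10 libraries was kept for this fit. In bulk RNA, fewer cells of one kind and less RNA per cell cannot be told apart, which holds for every difference below.

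**Figure D2:**
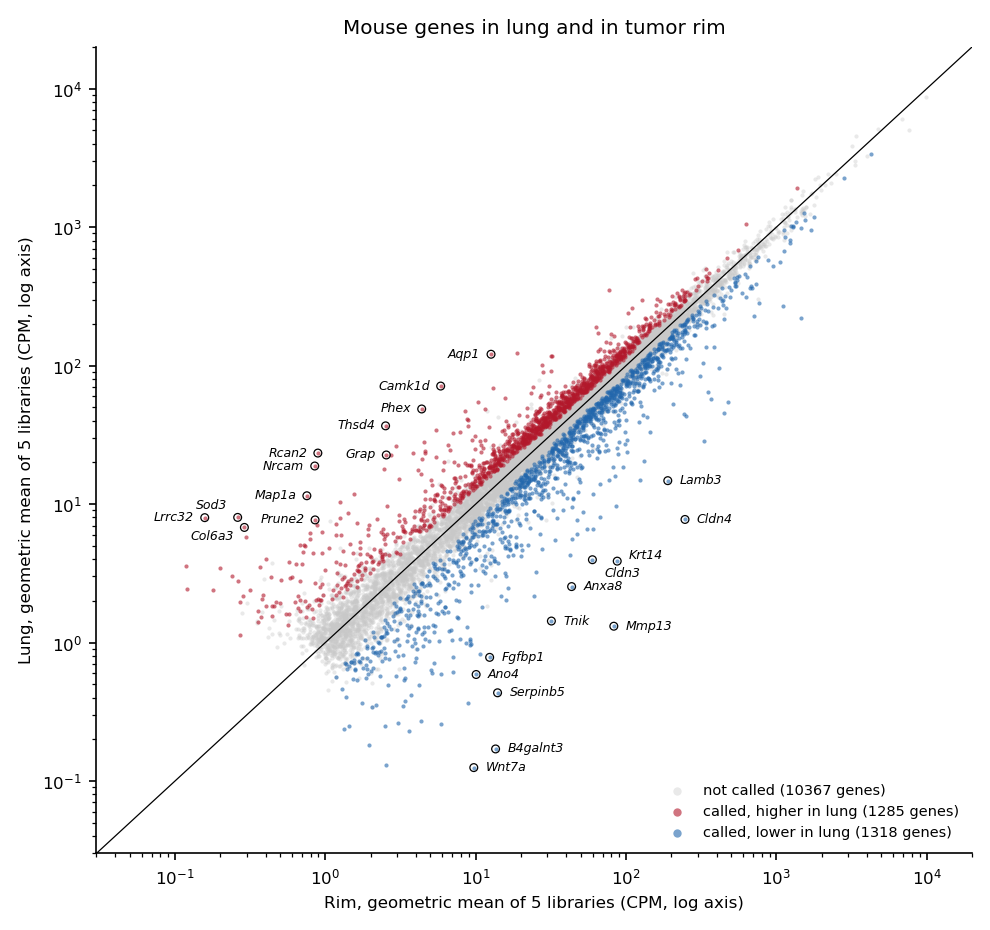
Geometric mean level of each of the 12970 tested mouse genes over the 5 lungs (vertical axis) against the 5 rims (horizontal axis), both in CPM on log axes; red points are called higher and blue points called lower in lung, grey points are not called, and the line marks equal levels. The 12 largest increases and 12 largest decreases are ringed and named, and the farthest from the line is B4galnt3, with a log2 difference of -6.31.

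The values of single libraries below follow the order of rats given above, from Rat3877 to Rat3789 for the lungs and from Rat3877 to Rat3867 for the rims. Among the genes with a mean of at least 4 CPM whose lung and rim values did not overlap, the largest increase was that of Lrrc32, which encodes GARP, a membrane anchor of latent TGF-beta. It stood at 3.603, 18.7, 7.44, 2.21 and 29.1 CPM in the lungs, against 0.175, 1.16, 0.0238, 0.115 and 0.175 CPM in the rims. Lrrc32 had a log2 difference of 5.66 ± 0.94 (SE) with an adjusted p of 0.00246. Without the lung of Rat3789 the limma fit gave 5.19 for Lrrc32 (adjusted p = 0.0046) and 4.47 for the next gene, Sod3 (adjusted p = 0.00211). The lungs of Rat3876 and Rat3789 were highest for Lrrc32, and each lung exceeded every rim. Sod3, the secreted superoxide dismutase, had 2.80, 9.75, 9.30, 4.35 and 29.8 CPM in the lungs, against 0.574, 0.198, 0.881, 0.0693 and 0.175 CPM in the rims (log2 difference 4.94 ± 0.74 SE, adjusted p = 0.00134), again with the lung of Rat3789 at the top. Rcan2, a regulator of calcineurin, had 36.2, 15.5, 20.2, 16.6 and 36.9 CPM in the lungs, against 2.07, 0.652, 1.88, 1.27 and 0.175 CPM in the rims. Rcan2 had a log2 difference of 4.71 ± 0.59 (SE) with an adjusted p of 0.000568. All 5 lungs were at least 15.5 CPM and no rim was above 2.07 CPM.

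Genes of cell adhesion and signaling followed. Nrcam, a neuronal cell adhesion molecule of the immunoglobulin superfamily, stood at 24.9, 20.4, 27.1, 24.5 and 7.04 CPM in the lungs, against 0.873, 0.312, 2.17, 1.04 and 0.723 CPM in the rims (log2 difference 4.47 ± 0.49 SE, adjusted p = 0.000291), lowest among the lungs in Rat3789. Camk1d, a calcium- and calmodulin-dependent kinase, had 74.3, 79.8, 78.04, 47.1 and 83.8 CPM in the lungs, against 9.65, 5.81, 8.26, 4.73 and 3.12 CPM in the rims. Camk1d had a log2 difference of 3.61 ± 0.28 (SE) with an adjusted p of 5.76e-05. Thsd4, a thrombospondin-repeat protein of microfibrils, had 38.6, 33.9, 29.8, 25.02 and 68.4 CPM in the lungs, against 3.12, 2.63, 5.69, 0.854 and 2.52 CPM in the rims. Thsd4 had a log2 difference of 3.87 ± 0.42 (SE) with an adjusted p of 0.000294. Every lung was above every rim for both. Aqp1, a water channel, was the most abundant of these genes, with 103, 154, 108, 125 and 120.5 CPM in the lungs, against 15.2, 45.8, 10.1, 18.2 and 2.52 CPM in the rims. Aqp1 had a log2 difference of 3.26 ± 0.57 (SE) with an adjusted p of 0.00299. Phex, a membrane endopeptidase known from phosphate metabolism of bone, had 67.7, 20.6, 45.1, 73.8 and 58.4 CPM in the lungs, against 7.26, 3.65, 15.5, 1.27 and 3.07 CPM in the rims. Phex had a log2 difference of 3.47 ± 0.57 (SE) with an adjusted p of 0.00227. Grap, an adaptor protein, averaged 23.5 ± 6.94 CPM in the lungs and 2.90 ± 1.62 CPM in the rims, Map1a, a microtubule-associated protein, 15.004 ± 11.4 CPM in the lungs and 0.995 ± 0.554 CPM in the rims, and Prune2 8.32 ± 3.45 CPM in the lungs and 1.19 ± 1.09 CPM in the rims (SD, n = 5 each).

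In the 1 library of cultured 4T1 cells, counted in a separate table, each of the 12 largest increases was below its lowest lung value. Lrrc32 had 0 reads in this pellet. Sod3 had 0.272 CPM there, Rcan2 0.645 CPM, Nrcam 0.713 CPM, Camk1d 5.57 CPM, Thsd4 7.98 CPM, Aqp1 20.95 CPM, Phex 12.6 CPM, Grap 1.46 CPM, Map1a 0.0679 CPM and Prune2 0.204 CPM. The cores, scaled with the lungs and rims, averaged 5.02 ± 4.27 CPM for Lrrc32, 27.9 ± 21.2 CPM for Sod3, 31.4 ± 6.24 CPM for Camk1d and 1.38 ± 0.520 CPM for Nrcam (SD, n = 5 each), so that Sod3 was highest in the cores. Host reads placed on the wrong species were checked in the rat gland, where all reads should be rat. The gland placed 0 reads on mouse Lrrc32 beside 1334 on rat Lrrc32, and 2 reads on mouse Nrcam, 7 on Camk1d and 8 on Phex. For Sod3, Rcan2, Col6a3 and Map1a the mean gland count on the mouse gene passed 10% of the pellet count. Lrrc32 and Aqp1 had more rat than mouse reads in the lungs. Lrrc32 lies at chr7:98489283-98502181 and Sod3 at chr5:52363791-52371418 of GRCm38, both on the plus strand, and no other annotated gene overlaps them. Rcan2, Nrcam, Camk1d, Thsd4, Phex, Map1a, Prune2 and Grap each overlap at least 1 other annotated gene, and because no source used here states whether counting used strand, reads of such neighbours cannot be told apart from theirs. Of the 128 genes described here, 66 overlap another gene in the annotation, 53 of them on the opposite strand, and the same uncertainty holds for each.

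**Figure D3:**
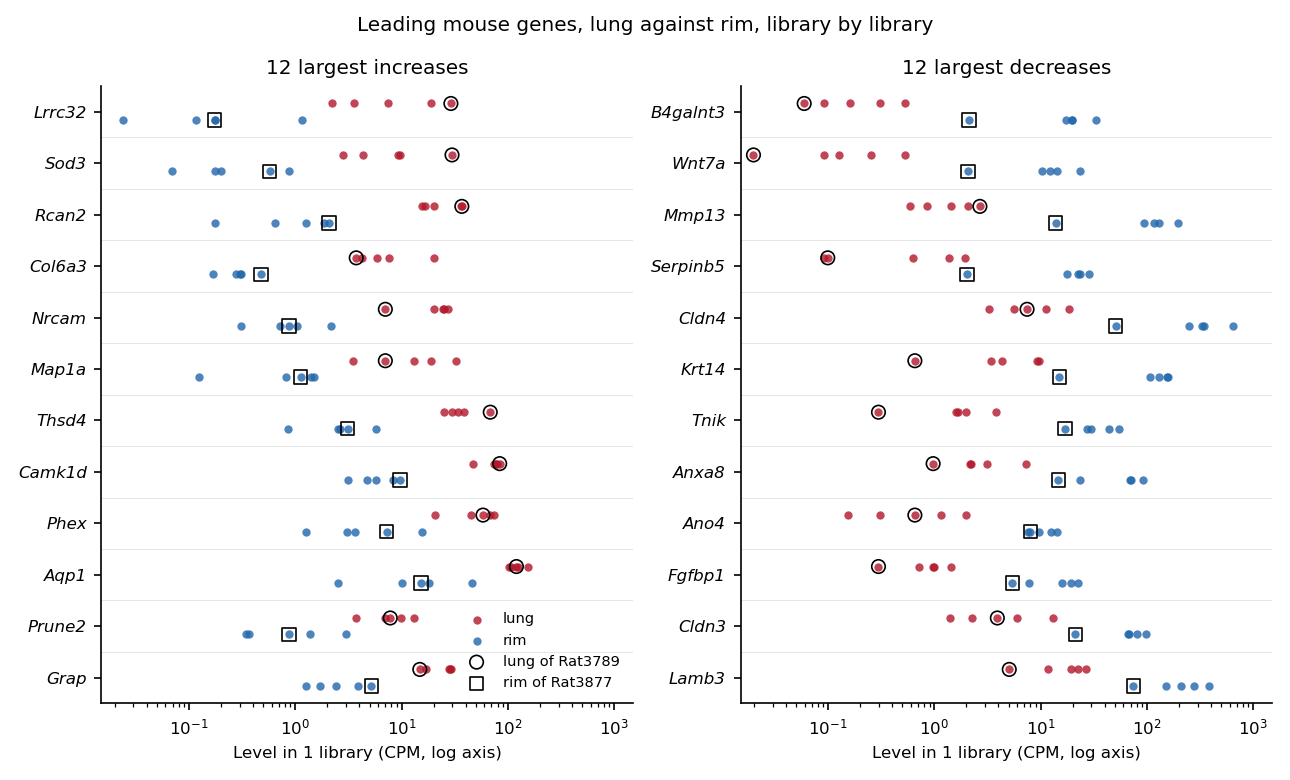
Level of the 12 largest increases (left) and 12 largest decreases (right) in every library, in CPM on a log axis; each gene has its 5 lungs in red above its 5 rims in blue, with the lung of Rat3789 ringed and the rim of Rat3877 boxed. No lung point overlaps the rim range of its gene, and among the decreases the boxed rim is the lowest rim except for Ano4.

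The largest decrease was that of B4galnt3, a glycosyltransferase that caps glycans with N-acetylgalactosamine, with 0.0924, 0.309, 0.161, 0.524 and 0.0595 CPM in the lungs, against 2.12, 32.9, 19.5, 17.2 and 19.5 CPM in the rims. B4galnt3 had a log2 difference of -6.31 ± 0.75 (SE) with an adjusted p of 0.00046. Wnt7a, a Wnt ligand of epithelia, had 0.0924, 0.253, 0.125, 0.524 and 0.0198 CPM in the lungs, against 2.07, 10.3, 23.3, 14.2 and 12.2 CPM in the rims. Wnt7a had a log2 difference of -6.28 ± 0.83 (SE) with an adjusted p of 0.000727. Both were near the level of single reads in the lungs, so their fitted differences depend on the 0.5 read that the authors' scaling adds. Mmp13, a collagenase, had 0.585, 2.05, 0.842, 1.43 and 2.68 CPM in the lungs, against 13.8, 94.03, 129.9, 117 and 198 CPM in the rims. Mmp13 had a log2 difference of -5.98 ± 0.64 (SE) with an adjusted p of 0.000274. Serpinb5, the serpin maspin, had 0.0924, 1.38, 0.627, 1.94 and 0.0992 CPM in the lungs, against 2.02, 28.4, 22.3, 17.9 and 23.3 CPM in the rims. Serpinb5 had a log2 difference of -5.01 ± 0.96 (SE) with an adjusted p of 0.00495. For all of these the rim of Rat3877 was the lowest rim by far, yet it lay above every lung. Tnik, a kinase of the Wnt pathway, had 2.002, 1.60, 1.67, 3.76 and 0.297 CPM in the lungs, against 16.99, 27.2, 29.6, 43.6 and 55.1 CPM in the rims. Tnik had a log2 difference of -4.48 ± 0.56 (SE) with an adjusted p of 0.000568. Fgfbp1, a carrier protein of fibroblast growth factors, averaged 0.881 ± 0.417 CPM in the lungs and 14.2 ± 7.36 CPM in the rims, Anxa8, an annexin, 3.14 ± 2.43 CPM in the lungs and 53.9 ± 33.1 CPM in the rims, and Ano4, of the anoctamin family, 0.849 ± 0.740 CPM in the lungs and 10.4 ± 2.81 CPM in the rims (SD, n = 5 each). Of these, 73.1% of the Anxa8 reads in the lungs would be rat reads at the misplacement rate of the gland. The part of such reads in its level was not tested.

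Levels in the necrotic cores differed between these genes. The cores averaged 2.65 ± 0.974 CPM for B4galnt3, 23.9 ± 7.72 CPM for Mmp13 and 2.54 ± 1.33 CPM for Serpinb5, but 70.1 ± 22.8 CPM for Fgfbp1 and 9.02 ± 1.84 CPM for Ano4 (SD, n = 5 each). The pellet had 26.5 CPM of Wnt7a, 8.73 CPM of Mmp13, 71.1 CPM of Fgfbp1 and 1.19 CPM of Tnik. Mmp13 lies at chr9:7272514-7283331 on the plus strand and Wnt7a at chr6:91363981-91411363 on the minus strand of GRCm38, neither overlapped by another annotated gene, while genes on the opposite strand overlap B4galnt3, Anxa8, Cldn3 and Krt7, with the same uncertainty. The 12 increases and 12 decreases kept their calls in every alternative setting that tested them. The 23 settings that remove no genes for rat reads tested all 24. The other 4 each left out some: Cldn4, Anxa8, Cldn3 and Lamb3 where over 10% of reads would be rat; Lrrc32, Aqp1, Wnt7a, Tnik, Anxa8, Fgfbp1, Cldn3 and Lamb3 in the pair of settings without genes of more rat than mouse reads in the lungs; and Sod3, Rcan2, Col6a3, Map1a, Tnik and Ano4 where the count of a mouse gene in the gland passed 10% of its count in the pellet.

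Epithelial junction genes fell. Of 28 listed, 25 were tested, with a median log2 difference of -1.31 against 0.01 over all genes. Of these, 20 fell (80%, against 10.2% over all genes), 0 rose and 5 were not called. In 18 of them the lung and rim values did not overlap, which held for 13.5% of all tested genes. Leaving out 1 library at a time gave 18 to 20 lowered genes. Cldn4, a tight junction claudin, stood at 3.23, 11.2, 5.57, 18.5 and 7.44 CPM in the lungs, against 50.7, 346, 246, 331.9 and 638 CPM in the rims (log2 difference -4.99 ± 0.61 SE, adjusted p = 0.000525), and its neighbour Cldn3 at 2.25, 5.98, 1.42, 13.1 and 3.91 CPM in the lungs, against 21.2, 68.2, 65.9, 81.3 and 98.1 CPM in the rims. Cldn3 had a log2 difference of -3.91 ± 0.56 (SE) with an adjusted p of 0.00111. The lung of Rat3869 was the highest of the lungs and the rim of Rat3877 the lowest of the rims for both, without overlap. Epcam, the epithelial adhesion molecule, was at 59.1, 42.5, 44.4, 109 and 40.8 CPM in the lungs, against 235, 556, 459.7, 535 and 752 CPM in the rims. Epcam had a log2 difference of -3.11 ± 0.32 (SE) with an adjusted p of 0.000226. Esrp1, a splicing regulator of epithelial isoforms, had 3.17, 6.94, 9.09, 7.45 and 1.01 CPM in the lungs, against 11.1, 65.5, 72.1, 38.6 and 69.02 CPM in the rims. Esrp1 had a log2 difference of -3.30 ± 0.64 (SE) with an adjusted p of 0.00512. Cdh1, E-cadherin, chosen after its values were seen, had 54.97, 37.4, 44.9, 100.3 and 16.2 CPM in the lungs, against 125, 313, 276, 246 and 377 CPM in the rims (log2 difference -2.54 ± 0.42 SE, adjusted p = 0.00227). Tjp1, the scaffold ZO-1, was not called, with 223 ± 55.6 CPM in the lungs and 265 ± 39.2 CPM in the rims. Tjp1 had a log2 difference of -0.26 ± 0.15 (SE) with an adjusted p of 0.235 (adjusted p = 0.039 with the rat as a block in the 4 rats with both tissues).

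Rat reads placed on mouse junction genes were estimated from the gland. At its rate they would make up 30.02% of the Cldn4 reads, 29.8% of the Cldn3 reads and 19.8% of the Epcam reads in the lungs, against 0.592%, 0.898% and 0.424% in the rims. When genes with more rat than mouse reads in the lungs were left out, 15 junction genes remained and 12 of them were lowered. The mean log2 level over the 25 tested genes was 4.07 to 4.89 in the lungs and 5.31 to 6.37 in the rims.

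Keratins, the filament proteins of epithelial cells, fell as well. Of 17 listed, 8 were tested and 7 of them fell (87.5%, against 10.2% over all genes), with a median log2 difference of -1.86. Krt14, of basal cells, stood at 4.34, 9.19, 3.42, 9.72 and 0.654 CPM in the lungs, against 14.99, 156, 107, 155 and 131 CPM in the rims. Krt14 had a log2 difference of -4.50 ± 0.78 (SE) with an adjusted p of 0.003. Krt7, of simple epithelia, had 26.6, 43.9, 42.5, 84.8 and 45.6 CPM in the lungs, against 168, 728, 515, 477 and 583 CPM in the rims. Krt7 had a log2 difference of -3.30 ± 0.37 (SE) with an adjusted p of 0.000369. Krt19 had 10.8 ± 6.41 CPM in the lungs and 48.9 ± 19.8 CPM in the rims. Krt19 had a log2 difference of -2.20 ± 0.42 (SE) with an adjusted p of 0.00497. The abundant pair Krt8 and Krt18 fell by less. Krt8 had 1089, 974, 1098, 1345 and 1532 CPM in the lungs, against 1915, 1669, 2059, 1533 and 1715 CPM in the rims (log2 difference -0.57 ± 0.13 SE, adjusted p = 0.012) and Krt18 had 901, 812, 825, 1071 and 1227 CPM in the lungs, against 1745, 1575, 1947, 1526 and 1739 CPM in the rims. Krt18 had a log2 difference of -0.83 ± 0.12 (SE) with an adjusted p of 0.00134. Their lung and rim values did not overlap, and both remained at 812 CPM or more in every lung. The cores averaged 5.97 ± 2.45 CPM of Krt14 and 1234 ± 314 CPM of Krt8 (SD, n = 5). Krt14 lies at chr11:100203162-100207548 on the minus strand of GRCm38, with no overlapping gene. Without the genes of more rat than mouse reads in the lungs, 4 keratins were left and 3 were lowered.

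Lama3 and Lamb3, which encode laminin chains of the epithelial basement membrane, fell. Lamb3 had 22.6, 26.9, 11.7, 19.4 and 5.06 CPM in the lungs, against 74.4, 149, 383, 208 and 276 CPM in the rims. Lamb3 had a log2 difference of -3.68 ± 0.49 (SE) with an adjusted p of 0.000735. Lama3 had 11.6, 3.96, 12.5, 11.9996 and 1.77 CPM in the lungs, against 9.90, 58.9, 152, 61.9 and 95.1 CPM in the rims. Lama3 had a log2 difference of -3.08 ± 0.72 (SE) with an adjusted p of 0.0126. Lamb3 did not overlap between the groups, and Lama3 did through the rim of Rat3877. In the whole list of 17 genes of hemidesmosomes and the basement membrane, 14 were tested, with a median of -0.15. Of these, Lama3 and Lamb3 fell (14.3%, against 10.2% over all genes) and 1 gene rose (7.14%, against 9.91%). The gene that rose was Hspg2, the heparan sulfate proteoglycan perlecan, at 1148, 969, 1162, 839 and 1228 CPM in the lungs, against 809, 477, 807, 511 and 634 CPM in the rims. Hspg2 had a log2 difference of 0.74 ± 0.17 (SE) with an adjusted p of 0.0101. Plec, plectin, was not called. Plec had a log2 difference of 0.27 ± 0.11 (SE) with an adjusted p of 0.102 (adjusted p = 0.025 with the rat as a block). With the rat as a block 4 of the list fell and 2 rose; without the lung of Rat3789, 5 fell and 2 rose. Rat reads would make up 34.8% of the Lamb3 reads in the lungs at the rate of the gland. Lamb3 overlaps other genes on both strands.

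**Figure D4:**
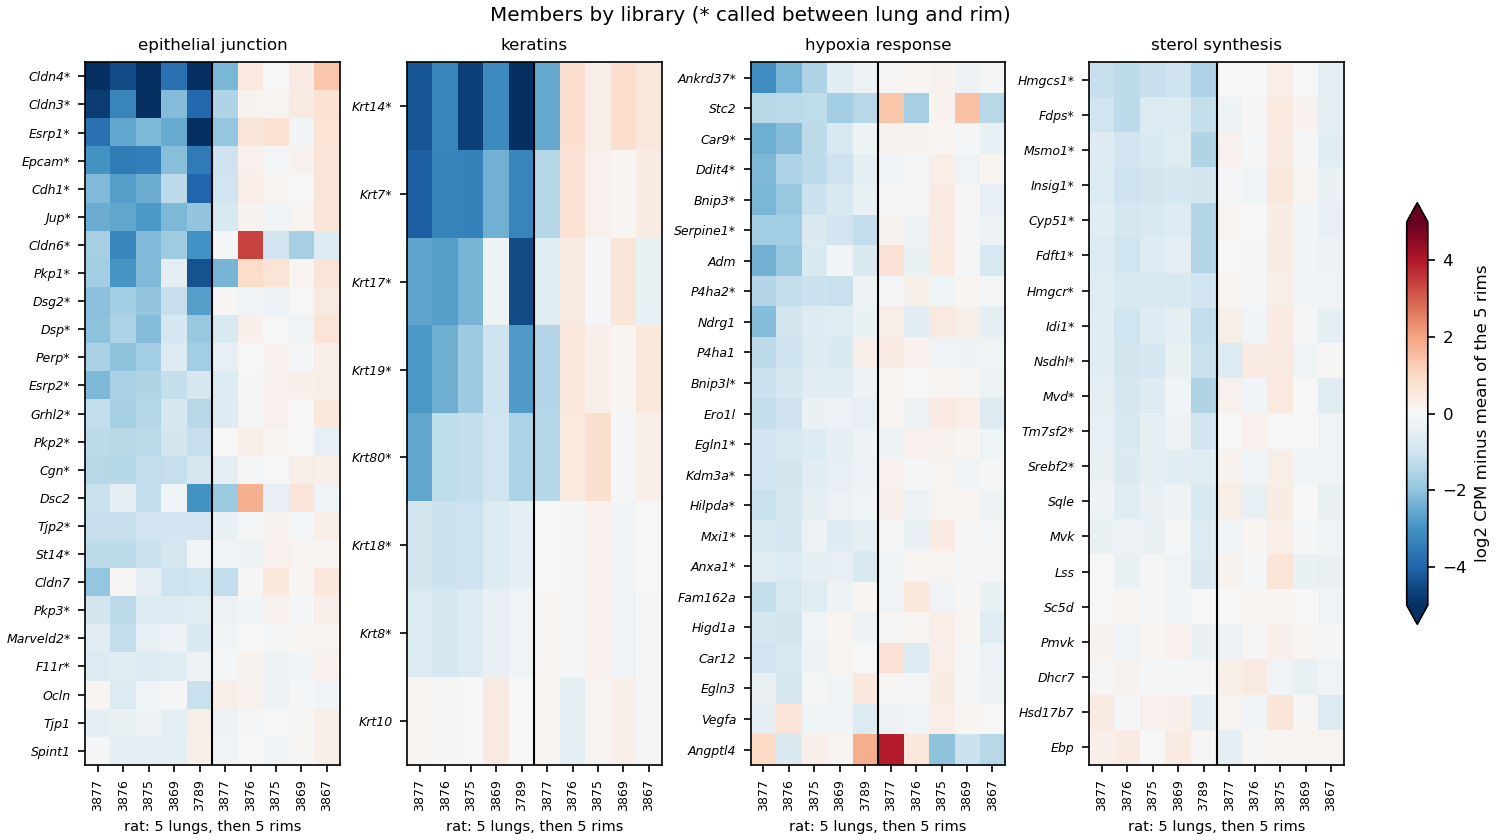
Each tested member of 4 gene lists in every library, as log2 CPM minus the mean of the 5 rims (colour scale, clipped at 5); columns are the 5 lungs and then the 5 rims, rows run from the largest decrease to the largest increase, and a star marks a called gene. Most junction and keratin rows are blue in all 5 lungs, and many are pale blue in the rim of Rat3877, and the lungs of Rat3877 and Rat3876 are the bluest in the hypoxia rows.

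Most mesenchymal genes were not called. Of 24 mesenchymal genes and regulators listed, 19 were tested, 3 rose (15.8%, against 9.91% over all genes), 4 fell (21.1%, against 10.2%) and 12 were not called, with a median of -0.32. Vim, the filament protein vimentin, had 5722, 5269.7, 5261, 5514 and 4071 CPM in the lungs, against 6917, 5527, 4583, 3898 and 3623 CPM in the rims. Vim had a log2 difference of 0.11 ± 0.18 (SE) with an adjusted p of 0.71 (not called). Fn1, fibronectin, had 3312, 5406, 4406, 3928 and 10789 CPM in the lungs, against 4784, 8009, 6476, 8338 and 12049.6 CPM in the rims. Fn1 had a log2 difference of -0.58 ± 0.31 (SE) with an adjusted p of 0.208 (not called, but adjusted p = 0.0212 with the rat as a block). The lung of Rat3789 was the highest lung for Fn1 and the lowest for Vim. Zeb2, a repressor of epithelial genes, rose, with 92.8, 93.7, 83.99, 73.02 and 73.8 CPM in the lungs, against 69.3, 49.8, 49.7, 56.7 and 34.4 CPM in the rims. Zeb2 had a log2 difference of 0.71 ± 0.16 (SE) with an adjusted p of 0.0107. Tnc, tenascin C, fell, with 23.2, 41.3, 11.4, 27.8 and 12.4 CPM in the lungs, against 60.3, 173, 116, 145 and 229 CPM in the rims. Tnc had a log2 difference of -2.68 ± 0.40 (SE) with an adjusted p of 0.0013. Acta2, smooth muscle actin, was called lower, but at the gland rate the expected rat reads equal or exceed its mouse reads in both groups (118% in the lungs and 128% in the rims), so its level is uncertain. Leaving out the lung of Rat3877, Rat3876 or Rat3875 or the rim of Rat3867 left 1 rise, and leaving out the lung of Rat3877 left 2 falls.

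Collagen VI, a beaded matrix collagen, rose. Its 3 chains all rose: Col6a1 stood at 414, 395, 382, 271 and 319 CPM in the lungs, against 78.4, 86.1, 112, 63.7 and 54.998 CPM in the rims (log2 difference 2.20 ± 0.18 SE, adjusted p = 5.76e-05), and Col6a2 stood at 51.9, 70.7, 79.1, 21.4 and 36.9 CPM in the lungs, against 7.06, 14.8, 7.64, 6.17 and 8.90 CPM in the rims. Col6a2 had a log2 difference of 2.47 ± 0.34 (SE) with an adjusted p of 0.000929. Col6a3 had 5.88, 7.61, 20.3, 4.21 and 3.75 CPM in the lungs, against 0.474, 0.312, 0.167, 0.300 and 0.274 CPM in the rims. Col6a3 had a log2 difference of 4.55 ± 0.44 (SE) with an adjusted p of 0.000175. Each lung exceeded every rim for each chain. The cores lay between lungs and rims for Col6a1 and Col6a2, at 239 ± 65.7 CPM and 29.02 ± 17.2 CPM, and averaged 8.74 ± 16.9 CPM for Col6a3 (SD, n = 5), while the pellet had 18.9, 0.985 and 0.0679 CPM. Expected rat reads were 0.686% of the Col6a1 reads in the lungs and 11.5% in the rims, and 2.30% of the Col6a2 reads in the lungs and 50.9% in the rims. The expected share was larger in the rims for both. Col6a1 and Col6a2 are neighbours on chromosome 10, at chr10:76708792-76726168 and chr10:76595762-76623630 of GRCm38, and no other gene overlaps them. Of 22 collagens and proteoglycans listed, 15 were tested, with a median of 0.07. Of these, 5 rose (33.3%, against 9.91% over all genes) and 2 fell (13.3%, against 10.2%). Col5a2 was called lower, but its expected rat reads exceed its mouse reads in both groups (126% in the lungs and 123% in the rims), so it is uncertain. Without the lung of Rat3789, or without the rim of Rat3877, 4 fell, and 1 fell without the lung of Rat3877, Rat3876 or Rat3875 or the rim of Rat3875, Rat3869 or Rat3867; when the genes with over 10% expected rat reads were dropped, 1 rose and 1 fell.

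Of 30 matrix proteases and inhibitors listed, 24 were tested, 8 fell (33.3%, against 10.2% over all genes), 3 rose (12.5%, against 9.91%) and 13 were not called, with a median of -0.24. The falls numbered 9 without the lung of Rat3789. Beside Mmp13, Mmp9, the gelatinase B, stood at 28.9, 61.6, 27.8, 13.2 and 28.1 CPM in the lungs, against 106, 264, 328, 642 and 686 CPM in the rims. Mmp9 had a log2 difference of -3.55 ± 0.49 (SE) with an adjusted p of 0.000973. Its rims spread over a wide range but none came down to the lungs. Phex, given above, was the largest increase of the list. Ctsl, a lysosomal cathepsin, and Timp2, an inhibitor of matrix metalloproteases, were abundant and not called, with 1352 ± 286 CPM in the lungs and 1518 ± 116 CPM in the rims for Ctsl and 543 ± 50.001 CPM in the lungs and 587 ± 149 CPM in the rims for Timp2 (SD, n = 5 each). The gland placed 32 reads on mouse Mmp9.

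Of 25 integrins and adhesion genes listed, 22 were tested, with a median of -0.30. Of these, 7 fell (31.8%, against 10.2% over all genes), 2 rose (9.09%, against 9.91%) and 13 were not called. The falls numbered 9 without the lung of Rat3789. Itga2, a collagen receptor subunit, gave the smallest adjusted p of the genes named here, with 71.3, 87.96, 78.5, 94.3 and 91.3 CPM in the lungs, against 299.6, 309.8, 349, 256 and 345 CPM in the rims. Itga2 had a log2 difference of -1.88 ± 0.10 (SE) with an adjusted p of 6.17e-06. The lungs lay between 71.3 and 94.3 CPM and the rims between 256 and 349 CPM. Itgb3, a subunit of receptors for vitronectin and fibrinogen, had 5.39, 7.67, 7.01, 7.26 and 24.2 CPM in the lungs, against 18.3, 41.6, 48.5, 86.1 and 120.3 CPM in the rims (log2 difference -2.57 ± 0.50 SE, adjusted p = 0.00506), with the lung of Rat3789 above the rim of Rat3877. Itgb7, a leukocyte integrin subunit, rose at a low level, with 3.28 ± 1.67 CPM in the lungs and 0.752 ± 0.454 CPM in the rims (log2 difference 2.32 ± 0.61 SE, adjusted p = 0.0215); without the lung of Rat3876 or of Rat3875 its adjusted p was 0.0542 or 0.0549. The most abundant subunits, Itgb1 and Itga3, were not called, with log2 differences of -0.19 and -0.28.

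Of 26 genes of the hypoxia response listed, 23 were tested, 12 fell (52.2%, against 10.2% over all genes), 0 rose and 11 were not called, with a median of -0.66; with the rat as a block in the 4 rats that gave both tissues, 19 fell. Car9, carbonic anhydrase IX, had 43.5, 52.4, 95.9, 136 and 196 CPM in the lungs, against 263, 265, 254, 217 and 186 CPM in the rims. Car9 had a log2 difference of -1.39 ± 0.35 (SE) with an adjusted p of 0.0166. Ddit4, an inhibitor of mTOR signaling induced by low oxygen, had 46.6, 76.6, 89.01, 108 and 158 CPM in the lungs, against 199, 207, 279.8, 198 and 237 CPM in the rims. Ddit4 had a log2 difference of -1.33 ± 0.25 (SE) with an adjusted p of 0.00495. Bnip3, a mitophagy receptor, had 18.4, 24.6, 42.5, 53.4 and 69.9 CPM in the lungs, against 94.02, 83.7, 119, 93.5 and 68.8 CPM in the rims. Bnip3 had a log2 difference of -1.28 ± 0.31 (SE) with an adjusted p of 0.0156. Car9 was not called without the rims of Rat3876 and Rat3877 together. For all of these the lung of Rat3789 was the highest lung, and for Car9 and Bnip3 it exceeded the lowest rim. Anxa1, an annexin, was the most abundant called member, with 586 ± 57.2 CPM in the lungs and 877 ± 90.3 CPM in the rims. Anxa1 had a log2 difference of -0.58 ± 0.09 (SE) with an adjusted p of 0.00219. Ndrg1 was not called over all 10 libraries, with 100.5, 235, 285, 294 and 359 CPM in the lungs, against 541, 300.4, 611, 549.8 and 325 CPM in the rims (log2 difference -0.93 ± 0.32 SE, adjusted p = 0.0583), but was with the rat as a block (adjusted p = 0.029). Vegfa, chosen after its values were seen, had 53.2 ± 22.1 CPM in the lungs and 56.6 ± 9.19 CPM in the rims (log2 difference -0.16 ± 0.22 SE, adjusted p = 0.646; not called). The mean log2 level over the list was 4.93, 5.13, 5.59 and 5.73 in the lungs of the 4 rats that gave both tissues and 5.96 in that of Rat3789, against 5.87 to 6.56 in the rims. Without the lung of Rat3789, 15 of the list fell and the median was -0.73.

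Of 21 glycolytic enzymes and transporters listed, 20 were tested, 1 of them, Aldoa, under a pair of identifiers. Of these 21 entries, 11 fell (52.4%, against 10.2% over all genes), 0 rose and 10 were not called, with a median of -0.51. Pgk1, phosphoglycerate kinase, had 415, 415, 596, 742 and 717 CPM in the lungs, against 817, 1172, 1322, 1097 and 931 CPM in the rims. Pgk1 had a log2 difference of -0.91 ± 0.19 (SE) with an adjusted p of 0.00715. Aldoc, aldolase C, had 12.96, 19.4, 32.7, 22.02 and 46.3 CPM in the lungs, against 60.8, 67.2, 87.3, 72.6 and 75.4 CPM in the rims. Aldoc had a log2 difference of -1.57 ± 0.27 (SE) with an adjusted p of 0.00306. Neither overlapped between the groups. Pdk1, a kinase that inhibits pyruvate dehydrogenase, fell. It had 13.3, 17.3, 41.5, 43.8 and 94.7 CPM in the lungs, against 78.95, 83.6, 149, 108 and 88.3 CPM in the rims. The lung of Rat3789 was above 3 of the 5 rims. Pdk1 had a log2 difference of -1.58 ± 0.44 (SE) with an adjusted p of 0.027. Its call was lost with edgeR and DESeq2, and its adjusted p was 0.0597 without the lung of Rat3877, 0.0642 without that of Rat3876, 0.0571 without the rim of Rat3875 and 0.0566 without that of Rat3869. Pkm and Eno1, the most abundant members, were not called, with log2 differences of -0.04 and -0.17. Leaving out the lung of Rat3877 left 4 called, that of Rat3876 left 5, the rim of Rat3875 left 6 and that of Rat3869 left 5, while without the lung of Rat3789 the count was again 11.

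Of 21 genes of sterol synthesis listed, 20 were tested, 12 fell (60%, against 10.2% over all genes), 0 rose and 8 were not called, with a median of -0.67, and leaving out any 1 library gave 10 to 12. Hmgcs1, which feeds the mevalonate pathway, had 74.9, 66.05, 74.1, 81.7 and 56.3 CPM in the lungs, against 169.6, 169.6, 210.3, 168 and 121 CPM in the rims. Hmgcs1 had a log2 difference of -1.24 ± 0.14 (SE) with an adjusted p of 0.000351. Insig1, a sensor that holds back the sterol regulators, had 80.8, 63.97, 67.8, 70.8 and 67.9 CPM in the lungs, against 121, 110.5, 186, 143 and 103 CPM in the rims. Insig1 had a log2 difference of -0.89 ± 0.14 (SE) with an adjusted p of 0.00211. Srebf2, the sterol regulator itself, had 149.8, 114, 137, 128 and 124 CPM in the lungs, against 209, 171, 226, 172 and 164 CPM in the rims. Srebf2 had a log2 difference of -0.52 ± 0.11 (SE) with an adjusted p of 0.00689. All lungs lay below all rims for these 3 genes. Msmo1, a methylsterol oxidase, had 92.7, 73.7, 84.6, 96.4 and 51.6 CPM in the lungs, against 167, 141, 196, 139.9 and 98.2 CPM in the rims (log2 difference -0.89 ± 0.20 SE, adjusted p = 0.01), lowest in the lung of Rat3789. Without the lung of Rat3789, 10 fell and the median was -0.53. Among 20 tested of 22 genes of fatty acid synthesis and uptake, 6 fell (30%, against 10.2% over all genes) and 3 rose (15%, against 9.91%), with a median of -0.18. In this list 1 rose without the lung of Rat3877 or Rat3875 or the rim of Rat3876, Rat3875, Rat3869 or Rat3867. Scd2 and Fads2, desaturases, led the falls, Scd2 with 321, 362, 286, 298 and 183 CPM in the lungs, against 599.5, 925, 719, 717 and 909 CPM in the rims (log2 difference -1.43 ± 0.18 SE, adjusted p = 0.000525) and Fads2 with 43.3 ± 14.9 CPM in the lungs and 99.9 ± 12.5 CPM in the rims (log2 difference -1.29 ± 0.25 SE, adjusted p = 0.00495), while Fasn, the fatty acid synthase, was not called (501 ± 41.7 CPM in the lungs and 495 ± 55.7 CPM in the rims; log2 difference 0.02 ± 0.09 SE, adjusted p = 0.906).

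A minority of cell cycle genes was called, all of it higher and by small amounts. Of 24 genes of G2 and mitosis, all tested, 8 rose (33.3%, against 9.91% over all genes), 0 fell and 16 were not called, with a median of 0.29. Of 25 genes of DNA replication, all tested, 7 rose (28%), 0 fell and 18 were not called, with a median of 0.26. E2f1, a regulator of the S phase genes, had 68.7, 64.5, 67.7, 63.7 and 63.8 CPM in the lungs, against 37.2, 38.6, 60.7, 38.03 and 37.1 CPM in the rims (log2 difference 0.66 ± 0.13 SE, adjusted p = 0.0053), and Ccne2, cyclin E2, had 39.4, 28.9, 32.2, 36.96 and 26.99 CPM in the lungs, against 22.7, 22.5, 22.5, 16.4 and 13.9 CPM in the rims. Ccne2 had a log2 difference of 0.76 ± 0.16 (SE) with an adjusted p of 0.00866. Aurka, a mitotic kinase, had 60.3, 56.6, 54.9, 63.1 and 51.9 CPM in the lungs, against 48.3, 36.6, 47.2, 36.1 and 38.6 CPM in the rims. Aurka had a log2 difference of 0.48 ± 0.10 (SE) with an adjusted p of 0.00917. None of these overlapped between lungs and rims. The widely used proliferation genes Mki67 and Top2a were not called, Mki67 with 533, 479, 504, 452 and 361 CPM in the lungs, against 488, 399.8, 602, 385 and 389.7 CPM in the rims (log2 difference 0.05 ± 0.14 SE, adjusted p = 0.833) and Top2a with 814, 828.5, 788, 735 and 508 CPM in the lungs, against 751, 552, 749, 519 and 547 CPM in the rims. Top2a had a log2 difference of 0.23 ± 0.15 (SE) with an adjusted p of 0.303. The counts moved with single libraries. In mitosis they were 3 without the lung of Rat3877 or the rim of Rat3869 or Rat3867, 4 without the lung of Rat3875 or the rim of Rat3876, 5 without the lung of Rat3876 or Rat3869, and 11 without the lung of Rat3789. In replication they were 2 without the lung of Rat3877, 3 without the lung of Rat3875 or Rat3869 or the rim of Rat3869 or Rat3867, 11 without the rim of Rat3875, and 12 without the lung of Rat3789.

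Of 14 Cdk inhibitors, D cyclins and growth arrest genes listed, 11 were tested, 4 fell (36.4%, against 10.2% over all genes), 0 rose and 7 were not called, with a median of -0.36, and each leave-one-out gave 4. Sfn, the 14-3-3 sigma protein of epithelia, had 29.2, 28.3, 28.4, 47.7 and 13.5 CPM in the lungs, against 72.9, 101, 109, 107 and 110.1 CPM in the rims. Sfn had a log2 difference of -1.86 ± 0.26 (SE) with an adjusted p of 0.00103. Cdkn1b, the inhibitor p27, had 139, 150.04, 131, 146 and 159.7 CPM in the lungs, against 173, 202, 173, 178 and 209 CPM in the rims. Cdkn1b had a log2 difference of -0.36 ± 0.08 (SE) with an adjusted p of 0.0108. Btg2 and Gadd45b, growth arrest genes, averaged 1.64 ± 0.503 CPM in the lungs and 3.55 ± 0.908 CPM in the rims for Btg2 and 7.84 ± 2.13 CPM in the lungs and 13.2 ± 1.90 CPM in the rims for Gadd45b (SD, n = 5 each). Ccnd1, cyclin D1, was not called (1084 ± 55.2 CPM in the lungs and 1147 ± 153 CPM in the rims; log2 difference -0.07 ± 0.10 SE, adjusted p = 0.63). Of 14 tested p53 targets of 16 listed, 4 rose (28.6%, against 9.91% over all genes) and 0 fell, with a median of 0.06. In this list 2 rose without the lung of Rat3877, and 1 or 2 fell without the lung of Rat3869 or the rim of Rat3877, Rat3875 or Rat3867. Zmat3 had 28.8 ± 0.625 CPM in the lungs and 21.4 ± 2.41 CPM in the rims (log2 difference 0.44 ± 0.09 SE, adjusted p = 0.00878) and Aen 35.7 ± 6.05 CPM in the lungs and 22.6 ± 4.11 CPM in the rims (log2 difference 0.66 ± 0.15 SE, adjusted p = 0.012), while Mdm2 was not called. Mdm2 had a log2 difference of 0.05 ± 0.08 (SE) with an adjusted p of 0.737.

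Of 21 Nrf2 targets and antioxidant genes, all tested, 7 rose (33.3%, against 9.91% over all genes), 0 fell and 14 were not called, with a median of 0.25. Gclm, of glutathione synthesis, had 63.2, 64.5, 67.1, 81.8 and 50.2 CPM in the lungs, against 35.05, 29.3, 42.2, 38.6 and 26.96 CPM in the rims. Gclm had a log2 difference of 0.93 ± 0.15 (SE) with an adjusted p of 0.00196. Srxn1, sulfiredoxin, had 64.1, 64.5, 70.7, 64.9 and 51.9 CPM in the lungs, against 48.9, 36.7, 42.6, 28.7 and 30.95 CPM in the rims. Srxn1 had a log2 difference of 0.77 ± 0.14 (SE) with an adjusted p of 0.00442. Neither overlapped. The count was 4 without the lung of Rat3877, Rat3875 or Rat3869 or without the rim of Rat3876 or Rat3867. Of 14 tested heat shock genes of 15 listed, 3 rose (21.4%, against 9.91% over all genes), with a median of 0.21. The rises numbered 5 with the rat as a block, 7 without the rim of Rat3877 and 4 without the lung of Rat3789. Cryab, alpha-B-crystallin, led them, with 11.4, 10.5, 10.1, 11.8 and 9.58 CPM in the lungs, against 5.71, 4.73, 6.12, 5.33 and 4.51 CPM in the rims. Cryab had a log2 difference of 1.02 ± 0.13 (SE) with an adjusted p of 0.000633. Hspb8, a small heat shock protein, had 92.9 ± 5.53 CPM in the lungs and 62.3 ± 6.92 CPM in the rims. Hspb8 had a log2 difference of 0.58 ± 0.09 (SE) with an adjusted p of 0.00137. The unfolded protein and integrated stress list had 2 of 23 called, higher (8.70%, below the 9.91% over all genes), with a median of 0.24, and 5 called higher with the rat as a block. Its most abundant member Hspa5, the chaperone BiP, was not called. Hspa5 had a log2 difference of 0.34 ± 0.17 (SE) with an adjusted p of 0.164. Without a single library the count ran from 0 to 6, and both calls were lost when any 1 of the lungs of Rat3877, Rat3876, Rat3875 and Rat3869 or of the rims of Rat3875, Rat3869 and Rat3867 was left out.

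A minority of organelle genes was called. Of 26 nuclear-encoded genes of the respiratory chain, 3 rose (11.5%, against 9.91% over all genes) and 1 fell (3.85%, against 10.2%), with a median of 0.12. Ndufa1, of complex I, had 26.3, 27.3, 25.8, 33.9 and 25.2 CPM in the lungs, against 14.6, 18.7, 18.2, 15.4 and 14.8 CPM in the rims. Ndufa1 had a log2 difference of 0.76 ± 0.12 (SE) with an adjusted p of 0.00161. Uqcrc2, of complex III, the 1 that fell, had 71.8, 83.2, 72.5, 80.2 and 83.1 CPM in the lungs, against 104, 95.7, 102, 111 and 97.4 CPM in the rims. Uqcrc2 had a log2 difference of -0.39 ± 0.07 (SE) with an adjusted p of 0.00512. The count of rises was 7 without the lung of Rat3789, 6 without the rim of Rat3877, and 1 without the lung of Rat3877 or Rat3869 or the rim of Rat3876 or Rat3867. Of 25 lysosomal genes, 5 rose (20%, against 9.91% over all genes) and 0 fell, with a median of 0.09. The falls numbered 2 without the lung of Rat3789 and 1 without the rim of Rat3877. The regulators Mitf and Tfe3 were among the genes that rose. Mitf had 12.6 ± 2.98 CPM in the lungs and 6.32 ± 1.52 CPM in the rims (log2 difference 0.99 ± 0.20 SE, adjusted p = 0.00683). Tfe3 had 55.1 ± 3.05 CPM in the lungs and 36.95 ± 3.51 CPM in the rims. Tfe3 had a log2 difference of 0.58 ± 0.08 (SE) with an adjusted p of 0.00123. Leaving out the lung of Rat3876 or the rim of Rat3869 or Rat3867 left 3 lysosomal rises. Of 29 ribosomal proteins of the cytosol, 2 fell (6.90%, against 10.2% over all genes), with a median of -0.06. Rpl3 had 848 ± 46.2 CPM in the lungs and 1137 ± 109 CPM in the rims. Rpl3 had a log2 difference of -0.42 ± 0.08 (SE) with an adjusted p of 0.00574. Leaving out the lung of Rat3877 or the rim of Rat3869 left 1 ribosomal fall, and leaving out the lung of Rat3869 or the rim of Rat3877 gave 4. Ribosomal protein genes have near-identical copies in the genome, so their counts are uncertain.

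Signals to the host were mixed. Of 32 chemokines, cytokines and growth factors of inflammation listed, 16 were tested, with a median of 0.20. Of these, 3 rose (18.75%, against 9.91% over all genes) and 4 fell (25%, against 10.2%). With the rat as a block, 5 rose and 4 fell. Csf1, the growth factor of macrophages, was the most abundant, at 314, 459.96, 266, 195 and 305 CPM in the lungs, against 159, 167, 102, 138 and 91.8 CPM in the rims (log2 difference 1.21 ± 0.22 SE, adjusted p = 0.00387), and each lung exceeded every rim. Cxcl16, a membrane-bound chemokine, fell, with 7.05, 4.80, 3.35, 5.17 and 4.15 CPM in the lungs, against 11.5, 17.3, 14.6, 24.5 and 20.03 CPM in the rims. Cxcl16 had a log2 difference of -1.84 ± 0.23 (SE) with an adjusted p of 0.000582. Il33, an alarmin, was called higher, with 36.7, 15.3, 35.3, 73.1 and 11.7 CPM in the lungs, against 0.973, 32.5, 1.69, 4.78 and 7.21 CPM in the rims (log2 difference 2.63 ± 0.82 SE, adjusted p = 0.0416), but the rim of Rat3876 was above the lungs of Rat3876 and Rat3789, and the call was lost with edgeR and DESeq2, with the rat as a block (adjusted p = 0.0515) and on leaving out any 1 library other than the lung of Rat3789 and the rim of Rat3876 (adjusted p 0.0549 to 0.0955). The count of rises was 1 without the lung of Rat3877, Rat3876, Rat3875 or Rat3869, and 7 without that of Rat3789, while 5 rose without the rim of Rat3877; 1 fell without the lung of Rat3877 or the rim of Rat3867 and 2 without the lung of Rat3875. Rat macrophage marker sums, given above, overlapped between the lungs without that of Rat3789 and the rims. Single markers separated in both directions. Rat Lyz2 had 7560 to 9973 CPM in those lungs, against 1443 to 3045 CPM in the rims. Rat Cd163 was lower there, with 76.6 to 349 CPM against 864 to 2783 CPM, and so were C1qa, C1qb and C1qc, without overlap. Rat Adgre1, Csf1r, Cd68 and Mrc1 overlapped. The part of host macrophages in these results was not tested.

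Interferon-stimulated genes and antigen presentation gave almost no calls. Of 24 tested interferon-stimulated genes of 25 listed, 1 rose and 1 fell (4.17% each, against 9.91% and 10.2% over all genes), with a median of 0.07. Without the lung of Rat3789, 7 rose and 0 fell. The mean log2 level of that lung over the list, 2.98, was the lowest of all 10 libraries. With the rat as a block, 6 rose. Without the rim of Rat3877, 3 rose; 0 rose on leaving out the lung of Rat3877, Rat3876, Rat3875 or Rat3869 or the rim of Rat3875 or Rat3869, and 0 fell on leaving out any of the lungs or the rim of Rat3876, Rat3869 or Rat3867. For MHC class I presentation 0 of 13 genes were called by limma, with 2 at an unadjusted p under 0.05; 1 was called lower by edgeR and 2 by DESeq2, and 2 fell without the lung of Rat3789 or the rim of Rat3876. H2-D1, a class I heavy chain, had 719, 970.4, 993, 959 and 1154 CPM in the lungs, against 1488, 893, 1199.5, 1504 and 1314 CPM in the rims. H2-D1 had a log2 difference of -0.41 ± 0.16 (SE) with an adjusted p of 0.0848. B2m, its light chain, had 688, 817, 779, 847 and 1278 CPM in the lungs, against 1187, 836, 933, 1042 and 965 CPM in the rims. B2m had a log2 difference of -0.20 ± 0.15 (SE) with an adjusted p of 0.39.

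Transcription factors of the AP-1 family split. Of 20 AP-1 and immediate early genes, all tested, 3 rose (15%, against 9.91% over all genes) and 4 fell (20%, against 10.2%), with a median of 0.04. With the rat as a block, 5 rose. Fosl1, the Fos-like factor FRA-1, rose, with 83.3, 57.6, 68.6, 67.1 and 47.2 CPM in the lungs, against 37.4, 16.9, 35.6, 18.5 and 16.5 CPM in the rims (log2 difference 1.45 ± 0.25 SE, adjusted p = 0.003), while Jund fell, with 49.4, 47.3, 54.2, 60.4 and 46.9 CPM in the lungs, against 86.2, 80.9, 83.2, 87.1 and 70.9 CPM in the rims (log2 difference -0.66 ± 0.09 SE, adjusted p = 0.000946), as did Egr2, a zinc finger factor of the immediate early response, with 6.498, 3.62, 3.42, 4.80 and 6.17 CPM in the lungs, against 13.5, 11.9, 8.59, 13.2 and 14.8 CPM in the rims. Egr2 had a log2 difference of -1.36 ± 0.22 (SE) with an adjusted p of 0.00195. None of them overlapped. Of 16 tested feedback genes and ligands of the ERK pathway, 5 fell (31.25%, against 10.2% over all genes), 1 rose (6.25%, against 9.91%) and 10 were not called, with a median of -0.30. Hbegf, a ligand of the EGF receptor, had 89.3, 103, 85.9, 116 and 125 CPM in the lungs, against 209.6, 183, 222, 191 and 169.6 CPM in the rims. Hbegf had a log2 difference of -0.92 ± 0.12 (SE) with an adjusted p of 0.000568. Dusp6, the ERK phosphatase, had 258, 269, 235, 250.2 and 305 CPM in the lungs, against 368, 461, 408, 329 and 516 CPM in the rims. Dusp6 had a log2 difference of -0.65 ± 0.12 (SE) with an adjusted p of 0.00408. The exception was Dusp1, a broader stress phosphatase, which rose, with 19.7 ± 4.64 CPM in the lungs and 9.94 ± 3.69 CPM in the rims. Dusp1 had a log2 difference of 1.04 ± 0.26 (SE) with an adjusted p of 0.0162. The AP-1 rises numbered 6 without the lung of Rat3789, and 1 without the lung of Rat3877, Rat3876 or Rat3875 or the rim of Rat3869 or Rat3867; the falls numbered 2 without the lung of Rat3877.

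Of 18 Notch and Hippo pathway genes listed, 16 were tested, 7 fell (43.8%, against 10.2% over all genes), 0 rose and 9 were not called, with a median of -0.45. The falls numbered 8 without the lung of Rat3789. Jag1, a Notch ligand, had 46.04, 33.5, 28.5, 40.8 and 49.9 CPM in the lungs, against 112, 145, 91.5, 126 and 147 CPM in the rims. Jag1 had a log2 difference of -1.65 ± 0.17 (SE) with an adjusted p of 0.000226. Dll4, another ligand, had 2.19, 3.96, 2.06, 2.57 and 5.85 CPM in the lungs, against 5.86, 8.64, 10.5, 6.77 and 10.3 CPM in the rims. Dll4 had a log2 difference of -1.42 ± 0.29 (SE) with an adjusted p of 0.00718. Ccn2, a secreted target of YAP and of TGF-beta, had 11.2, 9.30, 19.4, 33.9 and 31.4 CPM in the lungs, against 20.2, 112, 152, 146 and 73.01 CPM in the rims (log2 difference -2.15 ± 0.54 SE, adjusted p = 0.0175), with the rim of Rat3877 inside the lung range. Axl, a receptor kinase often counted among YAP targets, was not called. Axl had a log2 difference of 0.22 ± 0.11 (SE) with an adjusted p of 0.173. Without the rim of Rat3877, 1 gene of this list rose. Among Wnt genes, 4 of 17 tested fell (23.5%, against 10.2% over all genes) and 3 rose (17.6%, against 9.91%), of 31 listed. The median of the Wnt list was -0.19. Beside Wnt7a, the most abundant ligand Wnt7b was not called, with 331 ± 47.9 CPM in the lungs and 375 ± 36.3 CPM in the rims. Wnt7b had a log2 difference of -0.19 ± 0.10 (SE) with an adjusted p of 0.217. The secreted Wnt inhibitors Sfrp1 and Notum rose, Sfrp1 with 50.5, 40.5, 35.1, 47.5 and 34.5 CPM in the lungs, against 9.90, 10.9, 9.21, 8.94 and 5.76 CPM in the rims (log2 difference 2.24 ± 0.18 SE, adjusted p = 5.76e-05) and Notum with 25.2, 20.9, 26.9, 19.5 and 11.8 CPM in the lungs, against 3.02, 7.62, 5.88, 3.95 and 16.1 CPM in the rims. Notum had a log2 difference of 1.71 ± 0.39 (SE) with an adjusted p of 0.0118. Expected rat reads were 9.26% of the Sfrp1 reads in the lungs and 81.5% in the rims.

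In the TGF-beta, BMP and activin list, 21 of 26 were tested, with a median of -0.23. Of these, 6 fell (28.6%, against 10.2% over all genes) and 4 rose (19.05%, against 9.91%). The falls numbered 10 without the lung of Rat3789. Id2, an inhibitor of helix-loop-helix factors, rose, with 27.7, 30.99, 31.8, 33.9 and 21.6 CPM in the lungs, against 7.36, 16.8, 14.3, 9.58 and 4.46 CPM in the rims. Id2 had a log2 difference of 1.61 ± 0.31 (SE) with an adjusted p of 0.00473. Tgfbr3, the co-receptor betaglycan, rose, with 46.7 ± 17.8 CPM in the lungs and 20.2 ± 6.02 CPM in the rims. Tgfbr3 had a log2 difference of 1.18 ± 0.29 (SE) with an adjusted p of 0.0157. Bmp1, a procollagen protease, fell, with 499, 420.4, 495, 550.4 and 674 CPM in the lungs, against 757, 934, 993, 898 and 1206 CPM in the rims. Bmp1 had a log2 difference of -0.86 ± 0.14 (SE) with an adjusted p of 0.00218. Angiogenic factors were split, with 5 of 21 tested lower (23.8%, against 10.2% over all genes), 2 higher (9.52%, against 9.91%) and a median of 0.11. The falls numbered 6 without the lung of Rat3789. Pdgfb, the platelet-derived growth factor B chain, had 8.84, 10.1, 4.21, 8.49 and 10.8 CPM in the lungs, against 35.3, 60.4, 60.02, 118 and 87.3 CPM in the rims. Pdgfb had a log2 difference of -3.04 ± 0.32 (SE) with an adjusted p of 0.000243. Angpt2, angiopoietin 2, had 7.11, 7.78, 8.40, 9.13 and 6.72 CPM in the lungs, against 3.72, 3.14, 3.88, 2.52 and 3.52 CPM in the rims. Angpt2 had a log2 difference of 1.23 ± 0.16 (SE) with an adjusted p of 0.000727. Neither overlapped. In the angiogenic list 1 rose without the lung of Rat3877 or Rat3875 or the rim of Rat3867, 3 fell without the lung of Rat3877, and 4 rose without the rim of Rat3877.

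Calcium and calcineurin genes rose where called: 4 of 19 tested (21.1%, against 9.91% over all genes), of 22 listed, with 0 lower and a median of 0.12. Beside Rcan2, Ppp3ca, the catalytic subunit of calcineurin, had 177, 199, 193, 169 and 269 CPM in the lungs, against 112, 160.03, 130.3, 145 and 136 CPM in the rims. Ppp3ca had a log2 difference of 0.55 ± 0.13 (SE) with an adjusted p of 0.0132. Nfatc1, a transcription factor that calcineurin activates, had 36.5, 32.2, 39.7, 33.3 and 37.1 CPM in the lungs, against 26.5, 26.03, 21.2, 27.4 and 29.1 CPM in the rims. Nfatc1 had a log2 difference of 0.46 ± 0.10 (SE) with an adjusted p of 0.0106. Both had every lung above every rim, and 2 genes of the list fell without the rim of Rat3877. Of 23 tested apoptosis genes, 2 rose (8.70%, against 9.91% over all genes) and 1 fell (4.35%, against 10.2%), with a median of 0.02. In this list 1 rose without the lung of Rat3877, 2 fell without the rim of Rat3877, and 0 fell without the lung of Rat3877, Rat3876, Rat3875 or Rat3869 or the rim of Rat3869 or Rat3867. Among imprinted genes 1 of 8 tested fell (12.5%, against 10.2% over all genes), with a list median of -0.24. It was Plagl1, a zinc finger factor, with 0.893, 0.534, 0.842, 0.706 and 0.892 CPM in the lungs, against 7.61, 2.86, 1.74, 2.01 and 1.77 CPM in the rims. Plagl1 had a log2 difference of -1.81 ± 0.39 (SE) with an adjusted p of 0.00867. In this list 2 fell without the lung of Rat3869 or Rat3789. H19, a long noncoding RNA, was not called but uneven, with 294, 101, 184, 220.4 and 2059.7 CPM in the lungs, against 789.6, 1776, 245, 1029.6 and 701 CPM in the rims (log2 difference -1.33 ± 0.71 SE, adjusted p = 0.207; adjusted p = 0.0314 with the rat as a block); the lung of Rat3789 was the highest of all 10 libraries.

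A list of genes that earlier studies tied to 4T1 or breast cancer metastasis gave no single direction. Of 27 listed, 21 were tested, with a median of 0.17. Of these, 5 fell (23.8%, against 10.2% over all genes) and 4 rose (19.05%, against 9.91%). Vcam1, an adhesion molecule that binds leukocytes, rose, with 379.6, 283, 279.97, 223 and 393 CPM in the lungs, against 214, 187, 137, 196 and 101 CPM in the rims. Vcam1 had a log2 difference of 0.92 ± 0.21 (SE) with an adjusted p of 0.012. Id3, an inhibitor of helix-loop-helix factors, fell, with 32.1, 39.2, 27.5, 42.1 and 68.6 CPM in the lungs, against 66.1, 113, 64.1, 93.7 and 122 CPM in the rims. Id3 had a log2 difference of -1.16 ± 0.25 (SE) with an adjusted p of 0.00863. Spp1, osteopontin, was the most abundant member and was not called, with 2104, 3067, 2272, 2549.9 and 6796 CPM in the lungs, against 2545, 4399.6, 2254, 3964 and 4023 CPM in the rims (log2 difference -0.13 ± 0.31 SE, adjusted p = 0.794), highest in the lung of Rat3789. The rises numbered 2 without the lung of Rat3877, Rat3876, Rat3875 or Rat3869 or the rim of Rat3875, Rat3869 or Rat3867, and the falls numbered 3 without the lung of Rat3877 or Rat3875.

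**Figure D5:**
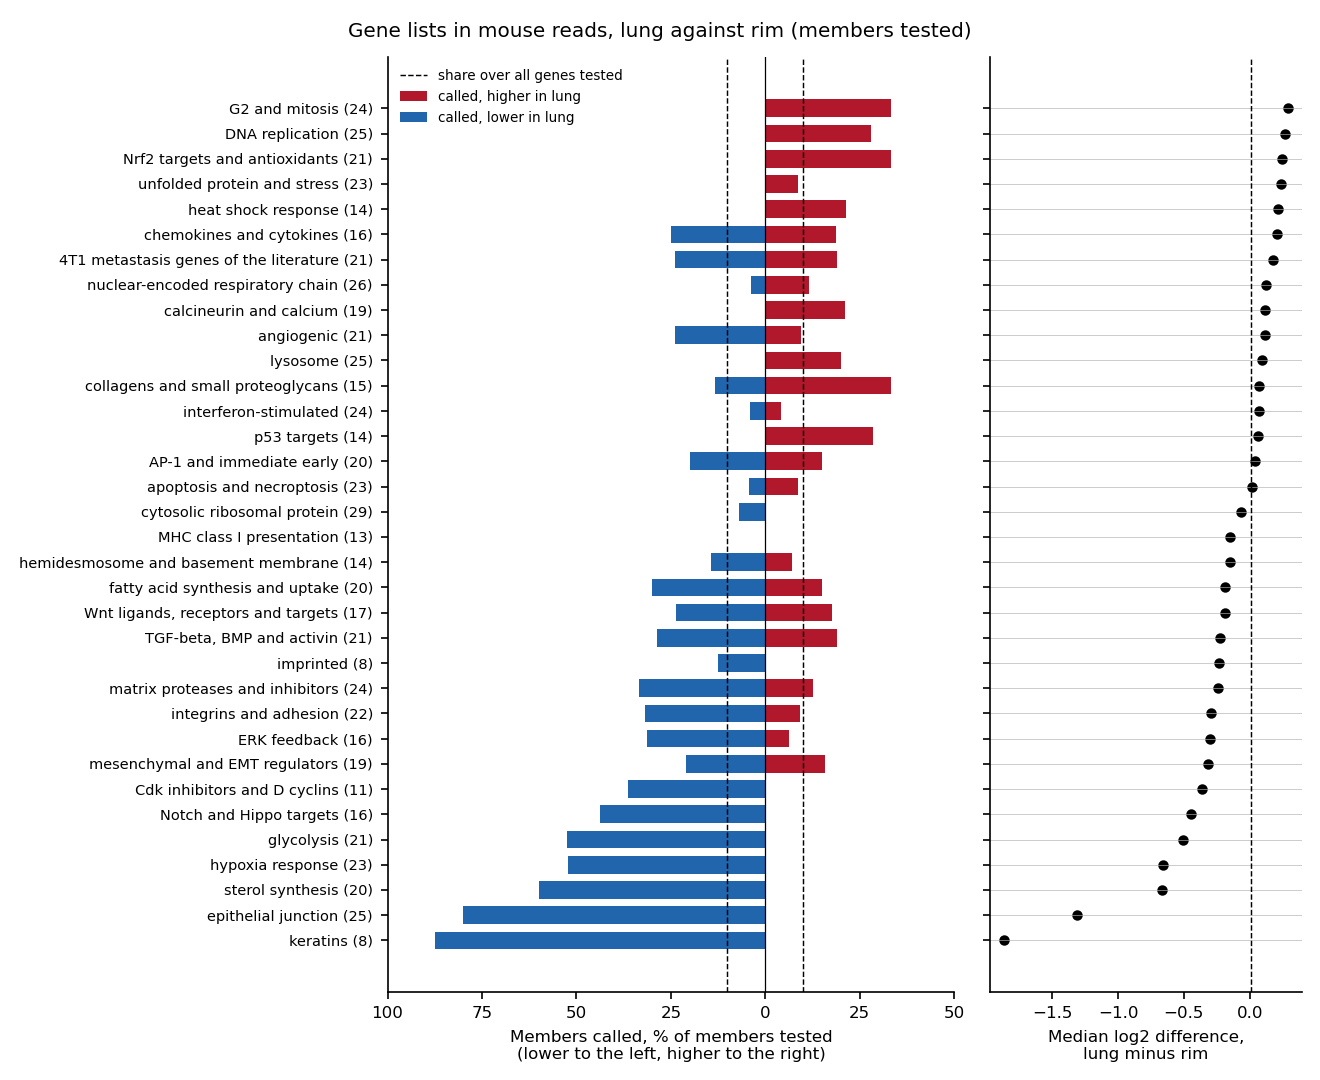
Left, members of each gene list called higher (red, to the right) or lower (blue, to the left) in lung, as a percentage of the members tested (number in parentheses), with the shares over all genes dashed; right, the median log2 difference of the tested members, lung minus rim. Keratins (7 of 8) and epithelial junction genes (20 of 25) reach farthest to the left, and no list reaches as far to the right.

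Hnrnpa1, Rpl39 and Ltbp1 were among the called genes of highest level. Hnrnpa1, a nuclear RNA-binding protein, fell, with 1114, 1123, 1146, 1138 and 1065 CPM in the lungs, against 1588, 1451, 1525, 1707 and 1535 CPM in the rims. Hnrnpa1 had a log2 difference of -0.48 ± 0.07 (SE) with an adjusted p of 0.00148. Rpl39, a ribosomal protein, rose, with 602 ± 56.99 CPM in the lungs and 469.5 ± 23.03 CPM in the rims. Rpl39 had a log2 difference of 0.35 ± 0.08 (SE) with an adjusted p of 0.0107. Ltbp1, a matrix protein that holds latent TGF-beta, rose, with 460.3, 579, 486, 406 and 606 CPM in the lungs, against 389.8, 351, 306, 317 and 349 CPM in the rims. Ltbp1 had a log2 difference of 0.56 ± 0.11 (SE) with an adjusted p of 0.00689. Each lung lay outside the rim range for these 3 genes. The share of mouse reads on mitochondrial genes was 1.98 ± 0.261% in the lungs and 1.78 ± 0.112% in the rims (SD, n = 5 each).

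Mouse markers of other cell types differed in level. Of 9 fibroblast markers, 7 were present and summed to 107 to 270.4 CPM in the lungs and 61.2 to 181 CPM in the rims. Of these, 5 were tested, and 2 of them, Pdgfra and Pi16, were called higher and 0 lower. Without the lung of Rat3789, 2 were called higher and 2 lower. The fibroblast genes named here were chosen after their values were seen. Pdgfra, a receptor of platelet-derived growth factors, made up most of the fibroblast marker sum in the lungs, with 119.5, 137, 161, 101 and 243 CPM in the lungs, against 57.7, 96.2, 63.3, 71.8 and 114 CPM in the rims. Pdgfra had a log2 difference of 0.90 ± 0.24 (SE) with an adjusted p of 0.0222. Pi16 had 5.88, 2.67, 4.35, 1.94 and 5.37 CPM in the lungs, against 0.374, 0.935, 0.548, 1.224 and 0.723 CPM in the rims. Pi16 had a log2 difference of 2.41 ± 0.39 (SE) with an adjusted p of 0.0021. Col1a1, a chain of collagen I, had 0.770, 0.815, 2.13, 1.39 and 11.2 CPM in the lungs, against 1.27, 47.96, 3.69, 17.7 and 61.7 CPM in the rims (not called), and at the gland rate rat reads would be 83.2% of its mouse reads in the lungs and 72.3% in the rims. The part of fibroblast reads in the other results was not tested. In the mouse table, 5 of 14 alveolar and airway markers were present, summing to 11.9 to 18.98 CPM in the lungs and 7.71 to 13.3 CPM in the rims. Sftpb, the 1 surfactant gene among them, had 0.0992 to 0.591 CPM in the lungs and 0.0231 to 0.0283 CPM in the rims, where the authors' scaling gives a gene without reads a value of this size. Skeletal muscle markers summed to 14.3 to 31.6 CPM in the lungs and 17.3 to 25.8 CPM in the rims, endothelial markers to 4.62 to 6.31 CPM in the lungs and 4.23 to 7.22 CPM in the rims, and smooth muscle and pericyte markers to 2.26 to 4.43 CPM in the lungs and 4.34 to 9.38 CPM in the rims. Neutrophil markers summed to at most 0.281 CPM in the lungs and 0.693 CPM in the rims, and macrophage markers to 3.71 to 5.34 CPM in the lungs and 4.59 to 7.76 CPM in the rims, all far below the mouse luminal markers Krt8, Krt18, Krt19, Epcam and Cdh1, whose sum was 1874 to 2822 CPM in the lungs and 3887 to 4794 CPM in the rims. Over the 8841 tested genes with a rat gene of the same symbol and at least 100 gland reads, the gland placed a median of 1.87% of reads on the mouse gene. At these rates over 10% of mouse reads would be rat for 202 genes in at least 1 group, 75 of them called, and without those 202 genes 2510 genes were called. Besides the genes given above with their shares, this concerned Cxcl16 (25.6% in the lungs and 3.84% in the rims), Ccn2 (21.4% and 6.14%), Btg2 (14.6% and 1.33%), Id2 (6.96% and 13.3%), Spp1 (9.42% and 12.8%) and Zeb2 (8.68% and 10.2%), in the same order of tissues. The part of rat reads in their differences was not tested.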

How the data were processed

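Mouse values were taken from the authors' deposited table, a signal on the voom CPM scale in which each value is a whole read number plus 0.5 times a library constant (whole to within 0.01 reads for all values). Per the submitters' processing notes, reads went through Trim Galore, STAR, featureCounts and limma with GRCm38 and Rnor_6.0; no source used here states how reads were assigned to a species, the strand setting or tool versions. The gland and pellet tables hold deposited counts. Genes reaching 1 CPM in 5 or more of the 10 libraries were tested between lung and rim with limma 3.58.1 (R 4.3.3) on log2 values with an intensity trend, unpaired, two-sided, at a Benjamini-Hochberg adjusted p under 0.05. The limma fit was also run on simulated reads with the same dispersion for every gene and no shared rats. That run cannot give the error rate for these libraries. Alternatives were other scalings (TMM, upper quartile, total count), other filters, limma-voom, edgeR 4.0.16 and DESeq2 1.42.0 on the recovered reads, added pseudocounts, libraries left out, genes with host reads left out, and the rat as a block. The 4 shared rats are the same animals; over genes, deviations of lung and rim of 1 rat correlated at 0.274 (Rat3877), 0.193 (Rat3876), 0.298 (Rat3875) and 0.047 (Rat3869). Host misplacement was estimated from the rat gland: its mouse reads per rat read of the same symbol, for rat genes with at least 100 gland reads, times the rat reads of each group.

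Named genes were the 12 largest increases and 12 largest decreases without overlap and with a mean of at least 4 CPM, up to 4 called members per list by size plus the 2 of highest level, and the 6 called genes of highest level in each direction; not every gene that met the rule is described. The comparison, the rule and the 34 gene lists were chosen with earlier results of these data known; 3 genes that are not reported here were left out of the lists. Gene positions are from GENCODE M21 (GRCm38).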

Additional observations from a re-analysis of the deposited data

Results flagged for a closer look

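Each group of 5 libraries was searched for 1 library set apart from the other 4 by a gap of over 0.71 of the group's range on the log2 scale, for the genes named, the lists and the mouse share. Chance flags about 1 in 20 groups, which is 16.3 of the 326 searched; 27 were found.

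The rim of Rat3877 was the lowest rim for a set of epithelial and protease genes. Its log2 CPM was 1.08 for B4galnt3 (other rims 4.11 to 5.04), 3.79 for Mmp13 (6.55 to 7.63), 1.01 for Serpinb5 (4.16 to 4.83), 3.91 for Krt14 (6.74 to 7.29), 4.41 for Cldn3 (6.04 to 6.62), 7.39 for Krt7 (8.90 to 9.51), 3.99 for Krt19 (5.58 to 6.003) and 6.19 for Sfn (6.66 to 6.78). The keratin list mean was 5.15 in this rim, against 6.21 to 6.34 in the others. It was the highest rim for Mdm2, at 6.89 (6.49 to 6.58).

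The lung of Rat3789, whose summed host alveolar markers (251 CPM) were near those of the rims, was the highest lung for Itgb3 at 4.60 (other lungs 2.43 to 2.94) and Wnt7b at 8.70 (8.21 to 8.32), and for the list means of integrins at 6.48 (6.14 to 6.23), angiogenic factors at 4.78 (4.35 to 4.47) and TGF-beta genes at 6.08 (5.55 to 5.68). It was the lowest lung for Nrcam at 2.82 (4.35 to 4.76), Top2a at 8.99 (9.52 to 9.69), Vim at 11.99 (12.4 to 12.5) and the AP-1 list mean at 4.79 (5.21 to 5.34).

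The lung of Rat3869 was the highest lung for the epithelial junction mean at 4.89 (4.07 to 4.27) and for Ndufa1 at 5.08 (4.66 to 4.77), and the lowest for Camk1d at 5.56 (6.22 to 6.39) and Axl at 9.58 (9.78 to 9.85). The lung of Rat3875 was the lowest for Pdgfb at 2.07 (3.09 to 3.43). Among the rims, that of Rat3867 was the lowest for Map1a at -3.00 (-0.28 to 0.59), that of Rat3875 the highest for E2f1 at 5.92 (5.21 to 5.27), and that of Rat3876 had the lowest mouse share of assigned reads, 65.7% (79.6 to 81.3%).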

How the results depend on the processing

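Under the 27 alternatives the count of called genes stayed within 1.5 times 2603 except without the lung of Rat3877 (1544) and without the rim of Rat3867 (1723). Over the 10 settings that leave out 1 library each, the total ran from 1544 to 3310, genes called higher from 702 to 1654, genes called lower from 842 to 1656, genes at least 2-fold higher from 161 to 280 and genes at least 2-fold lower from 334 to 537. Without a filter on low values 446 genes were at least 2-fold higher, and without genes of more rat than mouse reads in the lungs 263 were at least 2-fold lower; both change the set of genes tested. With the rat as a replicate block in the 4 rats that gave both tissues, 2436 genes were called (1175 higher, 1261 lower), 1978 of them shared with the unpaired fit; the same 8 libraries without the block gave 1989, and the rat as a random effect gave 3671. Of 148 named and called genes, 19 were not called under the block and 41 were lost on leaving out some single library; 5 of 49 named genes that were not called were called under the block, and beyond these and the list counts given above the block changed no other call among the named genes. No named gene reversed under any alternative. edgeR called 2580 genes and DESeq2 3330. Total-count scaling moved the median over all genes to 0.06, from 0.01, and gave 60.8% of calls as higher, against 49.4%. It leaves out the library factors of the deposited values, which were 0.996 to 1.06 in the lungs and 0.989 to 1.02 in the rims. What set these factors apart was not tested. Low genes limit precision: at single reads per library, fitted differences depend on the 0.5 read added.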
